A study of Homo sapiens with 12 samples.

Results

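The 43 genes described here are genes that human cells switch on in response to interferon. They were taken as a list of gene symbols, with no threshold on measured values, and the list was drawn up with earlier results of these data known. Of these, 42 were measured, among 19775 genes with a probe set, and STAT2 is not analysed here because no probe set was paired with its symbol alone. Each gene was read from the probe set with the highest mean over 12 arrays.

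The arrays are Affymetrix HG-U133 Plus 2.0 arrays of INA-6, a human multiple myeloma cell line that grows in the presence of interleukin-6. There were 4 arrays after the Raf inhibitor SB590885, 4 after the MEK inhibitor PD325901 and 4 after the solvent DMSO. Cells of every group were kept with 2 ng/ml interleukin-6 and 10% fetal calf serum, and none of the labels names an interferon treatment. The sources used here give neither inhibitor doses nor treatment times. The design text calls the 4 arrays of a group biological replicates, numbered 1 to 4. A second label adds the letter R to replicates 3 and 4, with no meaning given.

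Type I and type III interferons bind receptors that activate the kinases JAK1 and TYK2. These kinases phosphorylate STAT proteins, which join IRF9 in a complex that enters the nucleus. The complex binds a short DNA element, the interferon-stimulated response element, in the promoters of its target genes. The products of these genes degrade viral RNA, block translation, conjugate the ubiquitin-like protein ISG15, or raise the level of the sensors and transcription factors of the pathway itself. Plasma cells and myeloma cells carry interferon receptors and can run this programme.

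The core of the response element, the letters GAAA, any 2 letters and GAAA again, was searched for on both strands in the 250 bases before each gene start listed by RefSeq (GRCh38.p14). Among the 43 genes, 33 had a promoter entry, and 22 of these 33 (66.7%) held a match. Of all 15384 array genes with an entry, 522 (3.39%) held one, and of all 35116 promoter windows 3.02% did. The longer form with CT after the second GAAA, which lies within matches of the first, was present in 13 of 33 genes (39.4%) against 0.286% of the array genes. The palindrome TTCNNNGAA, the form that STAT dimers bind, was present in 9 of 33 (27.3%) against 7.82%. A match is a description of the letters in the window and does not show binding.

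The stretches below are 80 bases each, 5′ to 3′ on the strand of the gene, from the 6 genes with a match that had the highest mean difference between replicates 2 and 1 after PD325901 and DMSO. Capitals mark each match to the core or its reverse complement, and the pair of matches in ISG15 overlaps. They lie at chr1:1013355-1013434 (plus strand, ISG15), chr14:94110606-94110685 (plus strand, IFI27), chr1:27672241-27672320 (minus strand, IFI6), chr10:89327840-89327919 (plus strand, IFIT3), chr1:78649709-78649788 (plus strand, IFI44) and chr10:89392485-89392564 (plus strand, IFIT1). Each is upstream of a start listed by RefSeq. IFI27 has 2 promoter windows, and its stretch lies inside the span of the gene (chr14:94105894-94116690), before a later start.
ISG15: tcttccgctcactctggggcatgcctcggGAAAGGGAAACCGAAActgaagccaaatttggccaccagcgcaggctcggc
IFI27: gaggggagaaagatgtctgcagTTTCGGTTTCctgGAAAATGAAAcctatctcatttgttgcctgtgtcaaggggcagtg
IFI6: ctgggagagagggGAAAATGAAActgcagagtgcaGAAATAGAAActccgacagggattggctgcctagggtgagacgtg
IFIT3: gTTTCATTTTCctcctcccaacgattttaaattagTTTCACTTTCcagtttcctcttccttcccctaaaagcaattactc
IFI44: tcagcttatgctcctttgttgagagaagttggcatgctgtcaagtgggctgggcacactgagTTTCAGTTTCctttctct
IFIT1: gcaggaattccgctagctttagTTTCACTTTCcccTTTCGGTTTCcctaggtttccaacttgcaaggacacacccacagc

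Values below are log2 expression values per probe set, on which a difference of 1 is a doubling of the measured signal, and values of different genes are not compared. On 2 of the 12 arrays most of the interferon response genes were higher together than on the other 10. The median of the 42 genes was 8.03, 8.54, 7.73 and 7.86 on SB590885 replicates 1 to 4. It was 7.42, 10.92, 7.69 and 7.79 on PD325901 replicates 1 to 4. It was 7.44, 11.06, 7.61 and 7.78 on DMSO replicates 1 to 4. PD325901 replicate 2 and DMSO replicate 2 therefore stood above the other 10 arrays, whose medians lay between 7.42 and 8.54, and the 3 groups overlapped. A higher signal in bulk RNA can come from more RNA per cell or from more cells with the transcript, and these cannot be told apart.

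**Figure D1:**
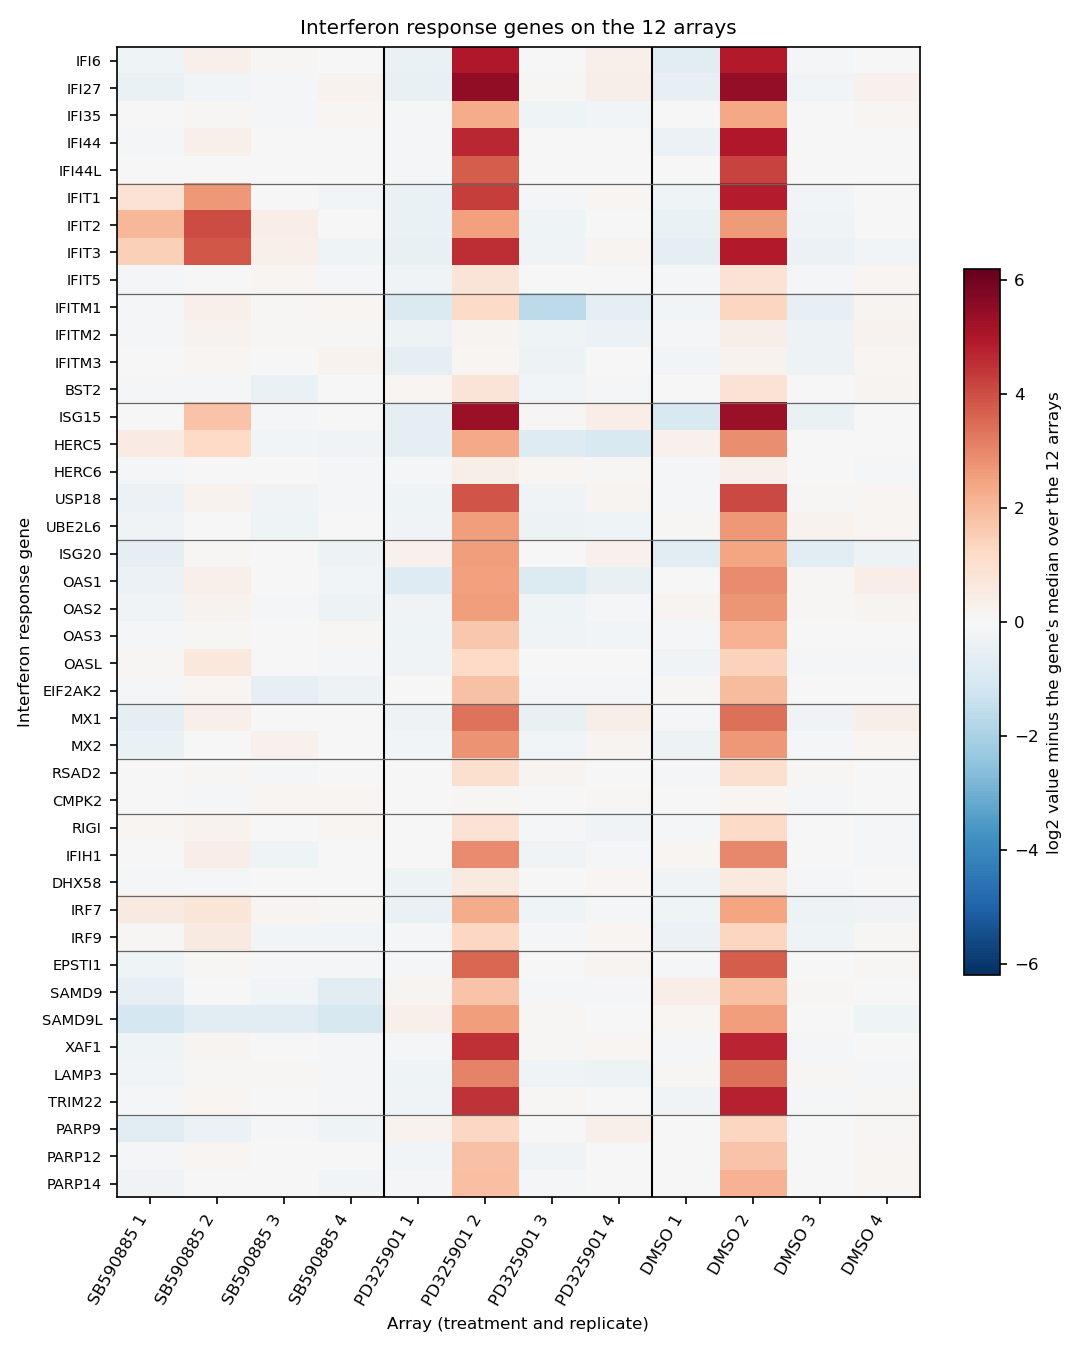
Heat map of 42 interferon response genes (rows, grouped by role) on the 12 arrays (columns: treatment and replicate), with colour for the log2 value minus the gene's median over the 12 arrays. The columns of PD325901 replicate 2 and DMSO replicate 2 are red in nearly all genes, and SB590885 replicates 1 and 2 are red in IFIT1, IFIT2 and IFIT3.

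Of the 42 genes, 38 were higher on both PD325901 replicate 2 and DMSO replicate 2 than on each of the other 10 arrays, against 3.93% of all 19775 genes. The exceptions were IFIT2, IFITM2, IFITM3 and CMPK2. All 42 had their highest PD325901 value on replicate 2 and their highest DMSO value on replicate 2. The highest of all 12 arrays was DMSO replicate 2 for 34 genes, PD325901 replicate 2 for 7 and SB590885 replicate 2 for 1, IFIT2. PD325901 replicate 2 was below DMSO replicate 2 in 35 of 42 genes, by a small amount (median difference -0.12).

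Differences between replicate 2 and replicate 1 of a group set 1 array against 1 array and carry no test. After SB590885 the difference ranged from -0.06 to 2.38 with a median of 0.32, and 4 of 42 genes (IFIT1, IFIT2, IFIT3 and ISG15) were at 1 or above, against 0.0405% of all genes. After PD325901 it ranged from 0.11 to 5.97 with a median of 2.57, and 35 of 42 genes were at 1 or above, against 0.379% of all genes. After DMSO it ranged from 0.15 to 6.30 with a median of 2.59, and 36 of 42 genes were at 1 or above, against 0.41% of all genes. Between replicates 4 and 3 no member reached 1 after SB590885 or DMSO (0% and 0.0152% of all genes), and 1 did after PD325901 (IFITM1, 1.03; 0.0202% of all genes). Over the 42 genes the replicate 2 minus replicate 1 differences of PD325901 and of DMSO, which share no array, had a Pearson correlation of 0.99, and over the 19733 other genes 0.74. Those of SB590885 and DMSO had a correlation of 0.52 over the 42 genes and 0.08 over the others.

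**Figure D2:**
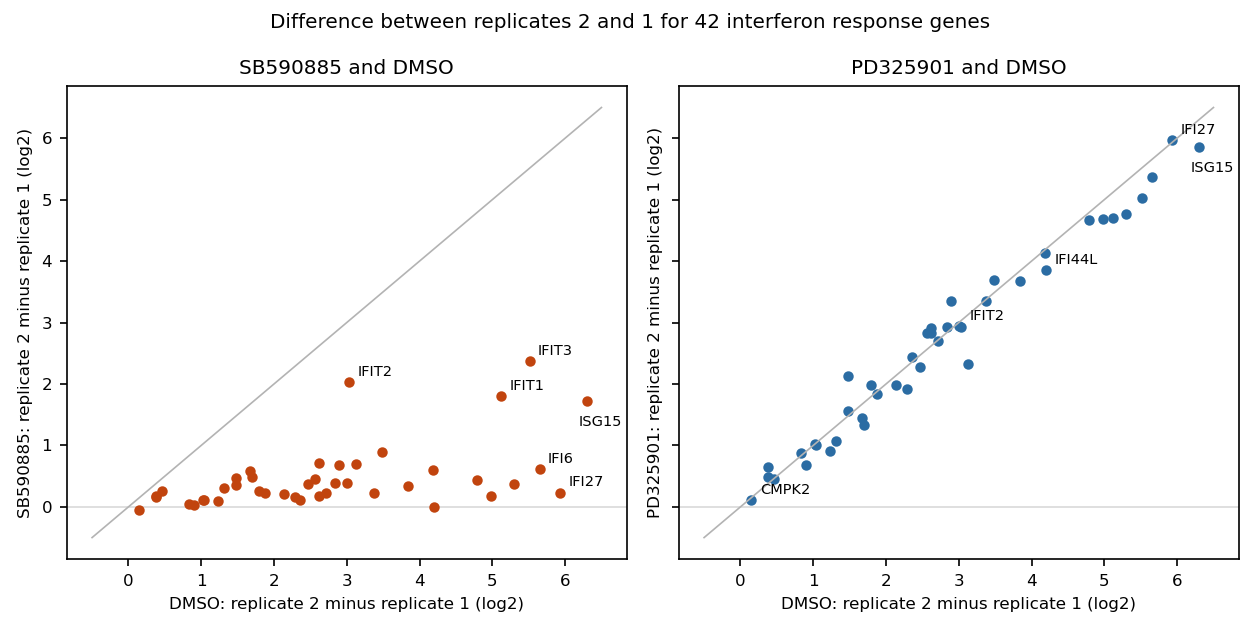
Log2 difference of replicate 2 minus replicate 1 for each of 42 interferon response genes, with DMSO on the x axes and SB590885 (left) or PD325901 (right) on the y axes; the grey diagonal marks equal differences. The PD325901 points lie along the diagonal up to 6.30 on the DMSO axis, while the SB590885 points stay at 2.38 or below, with IFIT1, IFIT2, IFIT3 and ISG15 above 1.

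The small interferon-induced proteins include some of the widest differences. IFI27, a mitochondrial and nuclear envelope protein, had 7.26, 7.49, 7.62 and 7.87 on SB590885 replicates 1 to 4. It had 7.22, 13.19, 7.72 and 8.03 on those of PD325901 and 7.17, 13.11, 7.50 and 7.93 on those of DMSO. The signal of replicate 2 was 62.6-fold that of replicate 1 after PD325901 and 61.2-fold after DMSO, against 1.17-fold after SB590885. IFI6, a protein of the same family, had 7.50, 8.12, 7.84 and 7.78 after SB590885, 7.35, 12.73, 7.79 and 8.09 after PD325901, and 7.07, 12.72, 7.65 and 7.74 after DMSO. IFI44 and IFI44L, neighbours in the genome, had 11.34 and 10.13 on PD325901 replicate 2 and 11.62 and 10.56 on DMSO replicate 2, with 6.27 to 6.99 over both genes on the other 10 arrays. In this role group IFI35, a cytoplasmic protein that partners with NMI, had the smallest difference. It read 8.86, 8.97, 8.82 and 9.03 after SB590885, 8.77, 11.20, 8.62 and 8.73 after PD325901, and 8.90, 11.27, 8.88 and 9.03 after DMSO. For these 5 genes SB590885 replicate 2 was far below the replicates 2 of PD325901 and DMSO.

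The IFIT genes encode proteins that bind viral RNA and block its translation, and lie close together in the genome. They included the genes with the widest differences on the SB590885 arrays. IFIT2 had 9.01, 11.04, 7.38 and 7.00 after SB590885, 6.57, 9.50, 6.73 and 6.95 after PD325901, and 6.57, 9.60, 6.76 and 6.95 after DMSO. SB590885 replicate 2 was the highest of the 12 arrays, at 2.70-fold the signal of DMSO replicate 2, and SB590885 replicate 1 was 5.43-fold DMSO replicate 1. IFIT3 had 8.60, 10.98, 7.46 and 6.85 after SB590885, 6.67, 11.70, 6.92 and 7.28 after PD325901, and 6.52, 12.04, 6.75 and 6.96 after DMSO. IFIT1 had 7.68, 9.48, 6.76 and 6.61 after SB590885, 6.35, 11.06, 6.65 and 6.91 after PD325901, and 6.52, 11.64, 6.63 and 6.80 after DMSO. For both, SB590885 replicates 2 and 1 came next in the order of arrays after the replicates 2 of PD325901 and DMSO. IFIT5 differed least, with 6.60, 6.71, 6.84 and 6.65 after SB590885, 6.50, 7.52, 6.72 and 6.71 after PD325901, and 6.60, 7.62, 6.65 and 6.84 after DMSO.

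**Figure D3:**
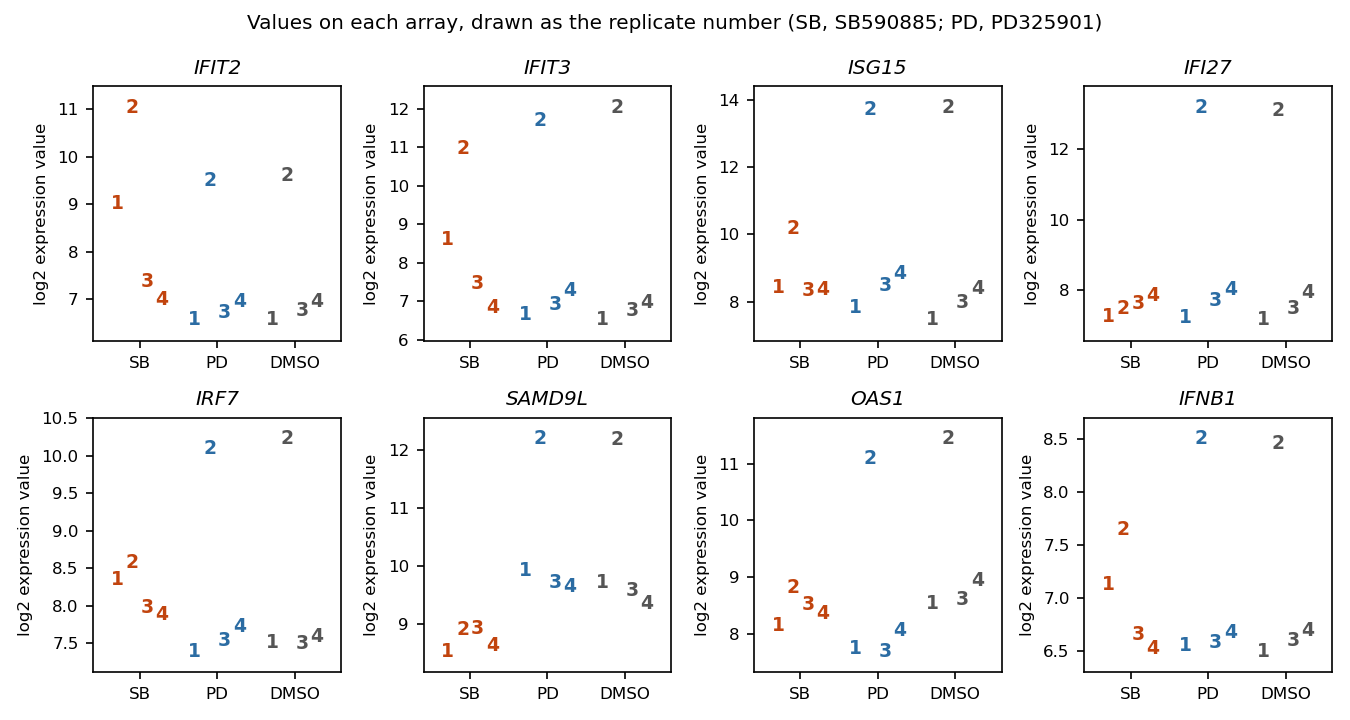
Log2 expression values of IFIT2, IFIT3, ISG15, IFI27, IRF7, SAMD9L, OAS1 and IFNB1 on each array, drawn as the replicate number, by treatment (SB, SB590885; PD, PD325901; DMSO). Replicate 2 of PD325901 and of DMSO stands above the other arrays of its group in all 8 panels; in the IFIT2 panel the highest point is SB590885 replicate 2 at 11.04, and in the SAMD9L panel the SB590885 arrays are the lowest 4.

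IFITM proteins sit in membranes and hinder the fusion of virus with the cell, and the surface protein BST2 (tetherin) holds budding virus back. IFITM1 had 12.17, 12.53, 12.28 and 12.37 after SB590885, 11.31, 13.43, 10.61 and 11.64 after PD325901, and 12.07, 13.55, 11.74 and 12.41 after DMSO. IFITM2 had 8.40, 8.66, 8.52 and 8.54 after SB590885, 8.15, 8.61, 8.21 and 8.11 after PD325901, and 8.37, 8.83, 8.13 and 8.68 after DMSO. IFITM2, IFITM3 and BST2 were among the 7 genes whose replicate 2 minus replicate 1 difference was under 1 after PD325901 or DMSO, and the others were HERC6, RIGI, DHX58 and CMPK2. RIGI, the RNA sensor RIG-I, was under 1 only after PD325901 (0.92, against 1.22 after DMSO) and only by the probe set used. Its other probe sets differed by 2.43 and 1.08 after PD325901 and by 2.95 and 1.33 after DMSO. The IFITM genes are close relatives and neighbours, and whether their probe sets read each other's RNA was not tested.

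ISG15 is a ubiquitin-like protein that UBE2L6 and HERC5 attach to other proteins and that USP18 removes. ISG15 had 8.44, 10.17, 8.35 and 8.37 after SB590885, 7.84, 13.71, 8.49 and 8.83 after PD325901, and 7.47, 13.77, 7.98 and 8.40 after DMSO. Its signal on replicate 2 was 3.32-fold that of replicate 1 after SB590885, 58.2-fold after PD325901 and 78.8-fold after DMSO. UBE2L6, HERC5 and USP18 also had their highest values on PD325901 and DMSO replicates 2, with replicate 2 over replicate 1 at 7.11-, 7.55- and 17.6-fold after PD325901 and 6.15-, 6.14- and 18.2-fold after DMSO. HERC6, the neighbour of HERC5, stayed between 6.40 and 6.56 after SB590885, between 6.43 and 6.92 after PD325901, and between 6.42 and 6.85 after DMSO. The genes of the cycle from conjugation to removal of ISG15 thus shared the pattern over arrays, while HERC6 varied by less than 1. HERC6 did not exceed the median of all probe sets (6.92) on any array, and whether its RNA was detected was not tested.

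The enzymes OAS1, OAS2 and OAS3 sense double-stranded RNA and activate a ribonuclease, ISG20 is a ribonuclease itself, and EIF2AK2 (PKR) is a kinase that stops translation. OAS1 had 8.15, 8.82, 8.52 and 8.35 after SB590885, 7.73, 11.09, 7.69 and 8.07 after PD325901, and 8.54, 11.44, 8.60 and 8.94 after DMSO. OASL, read in the same role group, differed least of its 6 genes. It had 7.32, 7.90, 7.21 and 7.15 after SB590885, 7.01, 8.46, 7.28 and 7.28 after PD325901, and 7.01, 8.68, 7.19 and 7.15 after DMSO. The GTPase MX1, which traps viral nucleocapsids, had 8.98, 9.88, 9.62 and 9.55 after SB590885, 9.27, 12.96, 9.14 and 9.97 after PD325901, and 9.53, 13.01, 9.36 and 9.97 after DMSO. For all of these PD325901 and DMSO replicates 2 were the highest pair. RSAD2 (viperin), an enzyme that makes a chain-terminating nucleotide, reached 7.49 on PD325901 replicate 2 and 7.50 on DMSO replicate 2 and was between 6.42 and 6.69 on the others. Its neighbour CMPK2, a nucleotide kinase, lay between 6.22 and 6.43 on all 12 arrays. These values are below the median of all probe sets (6.92), and whether CMPK2 RNA was detected was not tested.

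Sensors and transcription factors of the pathway itself were also highest on the replicates 2 of PD325901 and DMSO. IFIH1 (MDA5), a sensor of long double-stranded RNA, had 7.92, 8.32, 7.63 and 7.88 after SB590885, 7.92, 10.85, 7.70 and 7.78 after PD325901, and 8.05, 10.89, 7.93 and 7.82 after DMSO. The regulatory helicase DHX58 (LGP2) had 7.16, 7.21, 7.27 and 7.27 after SB590885, 6.96, 7.84, 7.28 and 7.40 after PD325901, and 7.04, 7.87, 7.20 and 7.25 after DMSO. IRF7, the factor that amplifies interferon production, had 8.35, 8.57, 7.97 and 7.88 after SB590885, 7.39, 10.09, 7.53 and 7.73 after PD325901, and 7.51, 10.22, 7.49 and 7.58 after DMSO. Apart from the 2 high arrays, every IRF7 value after SB590885 was above every value after PD325901 and after DMSO, which held for 2 members (IFIT2 and IRF7) and for 3.35% of all genes. IRF9, the DNA-binding subunit of the signalling complex, had 9.42, 9.91, 9.18 and 9.16 after SB590885, 9.28, 10.61, 9.20 and 9.44 after PD325901, and 8.98, 10.67, 9.07 and 9.40 after DMSO.

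Among the remaining effectors, TRIM22, a ubiquitin ligase that restricts viruses, had the widest difference between replicates 2 and 1. It had 6.36, 6.54, 6.41 and 6.37 after SB590885, 6.22, 10.91, 6.48 and 6.44 after PD325901, and 6.22, 11.20, 6.30 and 6.52 after DMSO. PARP14, an ADP-ribosyl transferase, lay between 7.80 and 8.06 after SB590885 and had 7.89, 9.88, 7.97 and 8.01 after PD325901, and 8.02, 10.17, 8.06 and 8.14 after DMSO. SAMD9L and its neighbour SAMD9, which restrict growth and viral translation, ran differently on the SB590885 arrays. SAMD9L had 8.53, 8.90, 8.91 and 8.62 after SB590885, 9.92, 12.20, 9.70 and 9.65 after PD325901, and 9.72, 12.18, 9.57 and 9.35 after DMSO. SAMD9 had 8.35, 8.82, 8.67 and 8.16 after SB590885, 9.03, 10.59, 8.69 and 8.75 after PD325901, and 9.25, 10.72, 8.90 and 8.85 after DMSO. All 4 SB590885 arrays were below all 4 DMSO arrays for both genes, which held for 5.76% of all genes.

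Other probe sets gave a check on these readings, since 20 of the 42 genes had more than 1. Of 26 further probe sets, 25 were higher on replicate 2 than on replicate 1 after both PD325901 and DMSO, and 18 by at least 1 in both. For EIF2AK2, IFIH1, IFIT2, OAS3, PARP14, PARP9 and XAF1 a further probe set was under 1 where the one used was not, and for RIGI both further probe sets were at 1 or above where the one used was not. Of the 26, 20 had a narrower difference than the one used in both groups and 6 a wider one, in IFIT5, OAS1, OASL, RIGI and RSAD2. For IFIT5 the further probe set differed by 1.94 after PD325901 and 2.04 after DMSO, against 1.02 in each by the one used.

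The genes upstream of the response and the other interferon-regulated genes were read from lists of symbols. Of 18 measured interferon genes, 0 were higher by at least 1 on replicate 2 than on replicate 1 after SB590885, 2 after PD325901 and 1 after DMSO. Over all genes the shares were 0.0405%, 0.379% and 0.41%. IFNB1, which encodes interferon beta, had 7.13, 7.64, 6.65 and 6.52 after SB590885, 6.56, 8.50, 6.58 and 6.68 after PD325901, and 6.50, 8.45, 6.60 and 6.69 after DMSO. The order of the IFNB1 values put PD325901 and DMSO replicates 2 first and SB590885 replicates 2 and 1 next, like IFIT1 and IFIT3. IFNL1, which encodes an interferon lambda, had 6.91, 6.96, 6.72 and 6.55 after SB590885, 6.48, 7.75, 6.50 and 6.71 after PD325901, and 6.49, 7.31, 6.63 and 6.64 after DMSO. The median of the interferon list lay between 6.46 and 6.59 on the 12 arrays.

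None of 10 genes for receptors, kinases and STATs, and none of 8 inhibitors of the pathway, differed by 1 or more between replicates 2 and 1 in any group. Of 21 nucleic acid sensing genes, 3 did so after PD325901 and 2 after DMSO, among them IFI16, a DNA sensor with 12.97 on PD325901 replicate 2 and 13.17 on DMSO replicate 2. Of 16 genes of MHC class I presentation, 2 did so after PD325901 and 1 after DMSO. TAP1, the peptide transporter of that route, had 11.74 on PD325901 replicate 2 and 11.72 on DMSO replicate 2, against 10.04 to 10.36 on the others. Of 21 genes that respond more to interferon gamma, 3 did so after PD325901 and 5 after DMSO, and of 37 other interferon response genes 15 did so after each. In these 4 lists 0 genes did so after SB590885. Over all genes, 0.0405% were higher by at least 1 after SB590885, 0.379% after PD325901 and 0.41% after DMSO. With so low a share after SB590885, a count of 0 in lists of this size says little.

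Of all 19775 genes, 69 were higher by at least 1 on replicate 2 than on replicate 1 after both PD325901 and DMSO, and 35 of them were members. Of the 15 non-members with the widest such difference, 12 stood in the lists read here. CD38 was counted there as a plasma cell marker and the others through interferon lists. RABGAP1L, CHMP5 and CCL4 stood in no list. The lists were chosen with earlier results of these data known. The widest was TNFSF10 (TRAIL), a death receptor ligand, with 8.08, 8.66, 8.24 and 7.82 after SB590885, 7.95, 10.84, 7.64 and 7.92 after PD325901, and 8.81, 12.09, 8.54 and 8.60 after DMSO. CD38, a surface enzyme of plasma cells, had 8.95, 8.90, 8.72 and 8.86 after SB590885, 9.55, 11.01, 8.90 and 9.37 after PD325901, and 9.23, 10.95, 8.81 and 9.21 after DMSO. The reverse direction held for 7 genes (0.0354% of all genes after PD325901 and the same share after DMSO), all metallothioneins, metal-binding proteins induced by zinc and other metals. MT2A had 9.33, 10.59, 9.87 and 9.10 after SB590885, 12.85, 9.09, 9.18 and 8.90 after PD325901, and 13.33, 9.29, 9.01 and 8.91 after DMSO. MT2A was thus highest on the replicates 1 of PD325901 and DMSO and next highest on SB590885 replicate 2. After SB590885, MT2A and MT1X instead were higher on replicate 2 than on replicate 1, by 1.26 and 1.13. The interferon response genes were high on the replicates 2 of PD325901 and DMSO.

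Markers of the cell line and of other cells were read on the same arrays. The plasma cell list had medians of 11.48 to 12.14 over the 12 arrays. Medians were 6.83 to 7.15 for B cell markers, 6.60 to 6.72 for monocyte markers, 6.79 to 7.02 for plasmacytoid dendritic cell markers, 6.76 to 7.03 for T and NK cell markers and 6.58 to 6.80 for fibroblast markers, and no gene of these 5 lists differed by 1 or more between replicates 2 and 1 in any group. RNA quality, read as the signal of 3′ over that of 5′ GAPDH control probe sets (log2), was 0.369 on PD325901 replicate 2 and 0.397 on DMSO replicate 2, within the 0.335 to 0.505 of the other arrays. The same measure for ACTB was 1.70 and 1.65, within the 1.41 to 1.85 of the others. DUSP6, a phosphatase induced by ERK, had 8.52, 8.79, 8.79 and 8.47 after SB590885, 7.07, 7.21, 6.63 and 6.98 after PD325901, and 9.79, 9.89, 9.48 and 9.31 after DMSO, so the replicates 2 sat with their own groups for this target of the inhibited pathway.

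Comparing the treatments asks whether interferon response genes moved when Raf or MEK was inhibited. The limma fit over all genes with Benjamini-Hochberg adjustment called a gene at an adjusted p under 0.05. For SB590885 against DMSO it called 0 of 42 members higher and 0 lower, against 1.59% and 1.69% of all genes. For PD325901 against DMSO it called 0 and 0 of 42, against 0.086% and 0.506%, and for SB590885 against PD325901 0 and 0, against 1.97% and 0.855%. At an unadjusted p under 0.05, 2, 0 and 2 members passed in these comparisons, all lower after SB590885 (SAMD9L and PARP9). The median member difference was -0.59, -0.09 and -0.46, against 0.00 over all genes in each. Leaving out single arrays or replicate numbers in turn, these medians ranged from -0.83 to 0.02, from -0.73 to 0.40 and from -0.66 to 0.09, so their sign rested on single arrays. Without DMSO replicate 2 the median was 0.02 for SB590885 against DMSO and 0.40 for PD325901 against DMSO, with 37 of 42 members positive. Without PD325901 replicate 2 it was -0.73 for PD325901 against DMSO and 0.09 for SB590885 against PD325901. SAMD9L averaged 8.74 ± 0.20 after SB590885 and 10.21 ± 1.32 after DMSO (SD, n = 4 each), with a limma adjusted p of 0.339. The large SD of the DMSO group came with the high value on its replicate 2.

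Same-numbered arrays of different groups deviated together, so the replicate number was also used as a block. Differently numbered arrays alike in the R mark also deviated together. With the block, limma called 1 member higher and 5 lower of 42 for SB590885 against DMSO, against 9.09% and 9.84% of all genes. IFIT2 rose by 1.14 ± 0.28 (SE, adjusted p = 0.0106) and was higher in 4 of 4 pairs. SAMD9L fell by 1.47 ± 0.32 (adjusted p = 0.00468), SAMD9 by 0.93 ± 0.20 (adjusted p = 0.00381), and PARP9, EIF2AK2 and BST2 also fell. All 5 fell most in the pair of replicates 2. The difference there was -3.28 for SAMD9L, against -1.19, -0.66 and -0.74 in pairs 1, 3 and 4. For BST2 it was -0.98, against -0.10, -0.47 and -0.15, and BST2 did not pass with replicate 2 left out. For 6 genes (IFI44L, SAMD9, SAMD9L, PARP9, BST2 and UBE2L6) all 4 SB590885 arrays were below all 4 DMSO arrays, against 5.76% of all genes. For IFI44L the pair differences apart from replicate 2 were only -0.04, -0.07 and -0.03. For PD325901 against DMSO the block called 0 and 0 of 42, against 1.96% and 6.18%. For SB590885 against PD325901 it called 3 higher (IFIT2, IFITM2 and IFITM3) and 3 lower (PARP9, SAMD9 and SAMD9L), against 12.4% and 5.73%. The 3 lower genes also differed most in the pair of replicates 2. For PARP9 and SAMD9L all 4 SB590885 arrays were below all 4 PD325901 arrays, against 2.5% of all genes.

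Since replicate 2 carried the high values, the same fit was made with the replicate block on replicates 1, 3 and 4 alone. For SB590885 against DMSO it called 4 of 42 members higher and 8 lower, which is 9.52% and 19% of them, against 6.3% and 7.44% of all genes. The genes that rose were IFIT2 by 1.04 ± 0.30 (SE, adjusted p = 0.031), IFIT3 by 0.89 ± 0.28 (adjusted p = 0.0451), IRF7 by 0.54 ± 0.10 (adjusted p = 0.002) and ISG15 by 0.44 ± 0.14 (adjusted p = 0.043). Falls were found for SAMD9L, by 0.86 ± 0.09 (adjusted p = 1.68e-05), SAMD9, by 0.60 ± 0.10 (adjusted p = 0.000791), and PARP9, EIF2AK2, OAS1, OAS2, UBE2L6 and USP18, by 0.26 to 0.39. IFIT2 averaged 7.80 ± 1.07 after SB590885 and 6.76 ± 0.19 after DMSO, and SAMD9L 8.68 ± 0.20 after SB590885 and 9.55 ± 0.18 after DMSO (SD, n = 3 each). The pair differences of IFIT2 were 2.44, 0.62 and 0.05 for replicates 1, 3 and 4, so replicate 1 gave most of its rise. ISG15 differed by 0.96, 0.36 and -0.02 in these pairs and IFIT3 by 2.08, 0.71 and -0.11, so replicate 4 had no rise for either. IRF7 differed by 0.83, 0.48 and 0.29, and SAMD9L by -1.19, -0.66 and -0.74. On the same arrays without the block, limma called 0 members higher and 1 lower (SAMD9L), against 0.207% and 0.187% of all genes. IRF7 and ISG15 then had limma adjusted p of 0.121 and 0.756.

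For PD325901 against DMSO on replicates 1, 3 and 4, limma with the replicate block called 1 of 42 members higher and 7 lower, which is 2.38% and 16.7% of them, against 1.38% and 5.17% of all genes. ISG20 rose by 0.73 ± 0.11 (SE, adjusted p = 0.000585), and PD325901 was above DMSO in 4 of 4 pairs. Falls were found for IFITM1 by 0.89 ± 0.12 (adjusted p = 0.0002), OAS1 by 0.86 ± 0.08 (adjusted p = 8.29e-06) and HERC5 by 0.85 ± 0.08 (adjusted p = 4.37e-06). UBE2L6, OAS2, LAMP3 and IFI35 fell by 0.23 to 0.41. HERC5 had 8.19, 11.11, 7.95 and 7.81 after PD325901 and 9.01, 11.63, 8.76 and 8.73 after DMSO, and ISG20 had 10.94, 13.26, 10.69 and 10.93 after PD325901 and 10.00, 13.12, 10.01 and 10.34 after DMSO. On replicates 1, 3 and 4 the 2 groups did not overlap for either gene. PD325901 was wholly above DMSO there in 1 of 42 members and wholly below in 10, against 3.72% and 4.73% of all genes. Without the block on these arrays, limma called 0 members higher and 0 lower, against 0.0303% and 0.288% of all genes.

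Between the inhibitors on these 3 replicates, limma with the replicate block called 10 of 42 members higher and 5 lower after SB590885, which is 23.8% and 11.9% of them, against 9.89% and 3.97% of all genes. The genes higher after SB590885 than after PD325901 were led by IFITM1 at 1.08 ± 0.12 (SE, adjusted p = 1.86e-05), IFIT2 at 1.05 ± 0.30 (adjusted p = 0.0293), HERC5 at 0.81 ± 0.08 (adjusted p = 4.19e-06), IRF7 at 0.51 ± 0.10 (adjusted p = 0.00249) and OAS1 at 0.51 ± 0.08 (adjusted p = 0.000648). IFITM3, IFITM2, LAMP3, OAS3 and IFI35 were higher by 0.20 to 0.35. SAMD9L was lower by a difference of -1.07 ± 0.09 (adjusted p = 1.01e-06), and PARP9, ISG20, SAMD9 and EIF2AK2 were lower as well. Without the block on these arrays, limma called 0 members higher and 1 lower (SAMD9L), against 0.612% and 0.298% of all genes. Doses and times may differ between the inhibitors, so these are differences between the treatments as applied. The median member difference on these replicates was 0.00 for SB590885 against DMSO, -0.02 for PD325901 against DMSO and 0.01 for SB590885 against PD325901.

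**Figure D4:**
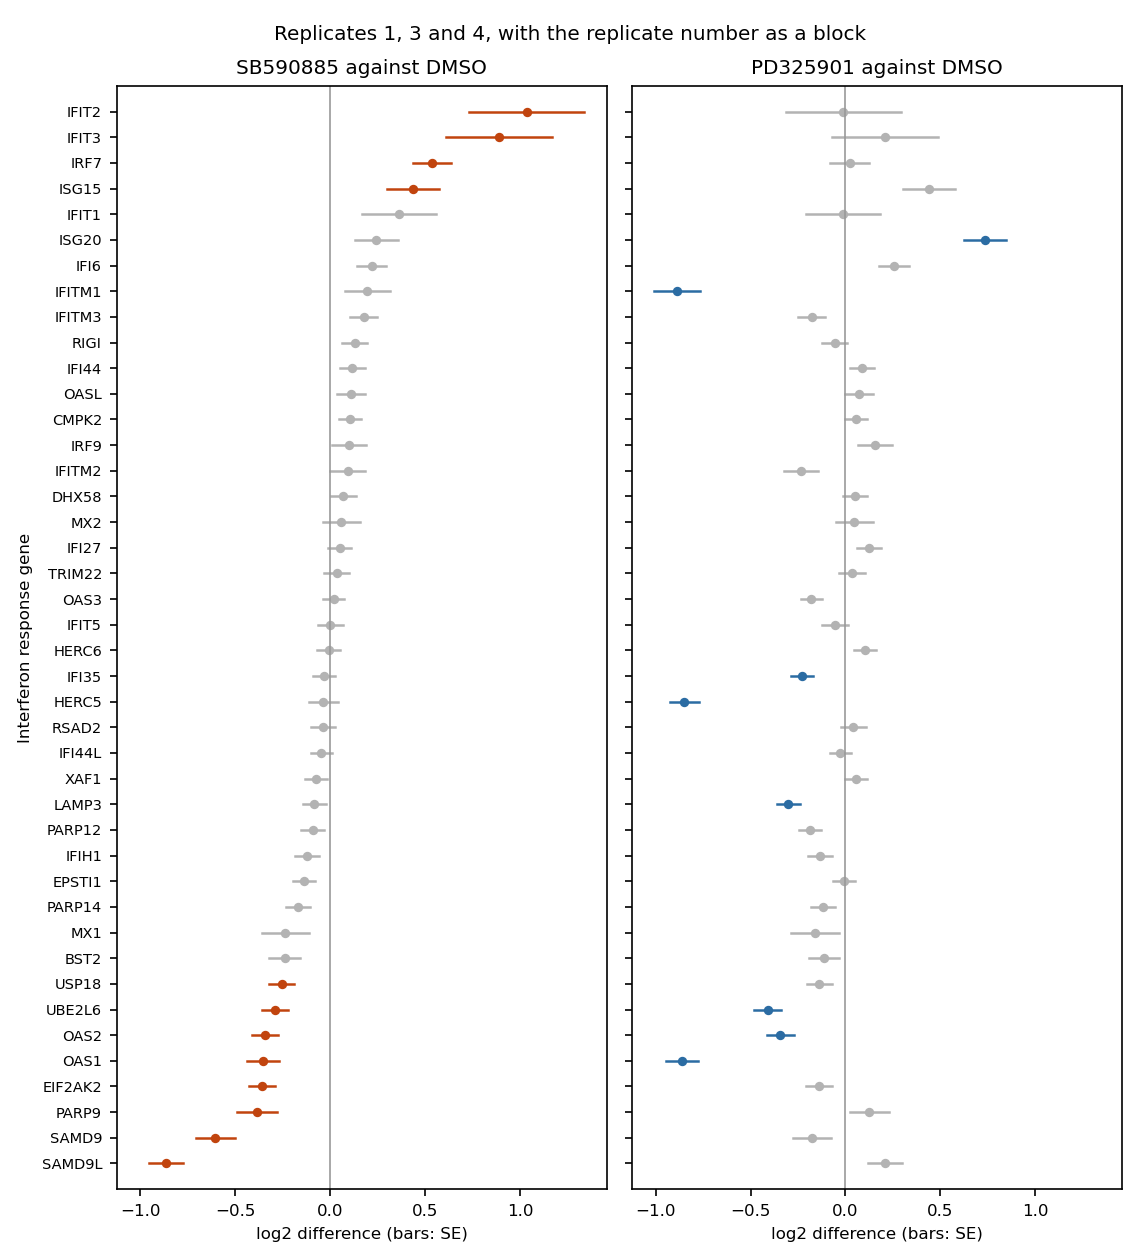
Log2 difference (point) with its SE (bar) for 42 interferon response genes, for SB590885 against DMSO (left) and PD325901 against DMSO (right), from limma on replicates 1, 3 and 4 with the replicate number as a block; both panels use the same DMSO arrays. Coloured genes had an adjusted p under 0.05: on the left 4 higher, from IFIT2 at 1.04, and 8 lower, to SAMD9L at -0.86; on the right ISG20 higher at 0.73 and 7 lower, to IFITM1 at -0.89.

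Around the members, genes upstream of the response and other interferon-regulated genes were counted in the same limma fits over all genes. On all 12 arrays without a block, the phosphatase PTPN6 (SHP-1), a brake on JAK signalling, was lower after both inhibitors, by a difference of -0.46 ± 0.07 for SB590885 (SE, adjusted p = 0.00572) and -0.71 ± 0.07 for PD325901 (adjusted p = 0.000371), each against the same DMSO arrays. The DNA sensor CGAS was lower after SB590885 (-0.56 ± 0.13, adjusted p = 0.0344). No other gene of the 7 interferon lists passed there. On replicates 1, 3 and 4 with the replicate block, 0 of 18 interferon genes passed in either comparison. Of 37 other interferon response genes 1 rose and 11 fell for SB590885 against DMSO, and 0 rose and 10 fell for PD325901 against DMSO. All genes in these fits rose and fell at the 6.3% and 7.44%, and the 1.38% and 5.17%, given above. With the block on all 12 arrays 0 of the 37 rose and 10 fell for SB590885, and 0 rose and 2 fell for PD325901. On replicates 1, 3 and 4 without the block 0 rose and 1 fell for SB590885, and 0 rose and 2 fell for PD325901. TNFSF10 was lower in both, by a difference of -0.60 ± 0.09 (adjusted p = 0.000479) for SB590885 and -0.81 ± 0.09 (adjusted p = 4.83e-05) for PD325901. Of 16 MHC class I presentation genes 2 rose and 4 fell for SB590885, and 0 rose and 5 fell for PD325901, while without the block no gene of this list passed on these arrays. PSMB8, a subunit of the immunoproteasome, was lower in both, by -0.61 ± 0.09 (adjusted p = 0.000228) and -0.64 ± 0.09 (adjusted p = 0.000205). Of 10 receptors, kinases and STATs only JAK1 passed, with a rise of 0.42 ± 0.07 for SB590885 (adjusted p = 0.000584), and it did not pass without the block. Of 10 plasma cell markers 0 rose and 5 fell for SB590885, and 2 rose and 1 fell for PD325901. Of 9 T and NK cell markers TRAT1 and CD8A fell for SB590885, and of 6 B cell markers PAX5 fell. On all 12 arrays without a block the differences were -1.06 ± 0.18 for TRAT1 (SE, adjusted p = 0.00961), -0.33 ± 0.07 for CD8A (adjusted p = 0.0285) and -0.45 ± 0.09 for PAX5 (adjusted p = 0.0195), and 0 of these passed for PD325901 in that fit. The part of these markers in the interferon genes was not tested.

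The R mark was compared with group as a term. The 3′ over 5′ signal of ACTB was 1.41 to 1.57 on the R-marked arrays and 1.65 to 1.85 on the unmarked ones (log2). The SD over probe sets was 1.39 to 1.45 and 1.52 to 1.55, so the marked and unmarked arrays did not overlap in either. In the same fit 0 of 10 plasma cell markers were higher and 6 lower on the R-marked arrays, against 23.4% and 32.1% of all genes. Of the B cell markers 4 of 6 were higher, and of the T and NK cell markers 4 of 9. After PD325901 and DMSO, PAX5 and TRAT1 were lower on both R-marked arrays than on both unmarked ones, but not after SB590885. The part of these measures in the differences was not tested. Of 42 members 0 were higher and 8 lower on the 6 R-marked arrays than on the 6 unmarked ones, against 23.4% and 32.1% of all genes (limma, Benjamini-Hochberg adjusted p under 0.05). The lower genes were BST2, EIF2AK2, HERC5, IFIH1, IFIT1, IFIT2, IFIT3 and SAMD9, with IFIT3 lower by a difference of -2.38 ± 0.86 (SE, adjusted p = 0.0302). The unmarked set holds the replicates 2. Without them, and with the replicate number as a random block, 12 members were higher and 3 lower, against 17.3% and 29.9% of all genes. The unmarked arrays were then those of replicate 1 alone, so the R mark cannot be told apart from that replicate. The correlation within a replicate number was estimated at -0.068 (0.0025 on all arrays), so arrays counted nearly as independent. The p-values of this fit therefore do not measure the spread between replicate numbers. The highest differences were IFI27 at 0.56 ± 0.09 (adjusted p = 0.000147), IFI6 at 0.50 ± 0.07 (adjusted p = 2.9e-05) and ISG15 at 0.49 ± 0.13 (adjusted p = 0.00555).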

How the data were processed

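RNA of INA-6 cells was measured on 12 arrays. The authors deposited log2 expression values made with RMA in R 3.0.1, per the submitters' processing notes; a filter is not named there. Array medians lay between 6.88 and 6.97. Of 54675 probe sets, 62 controls were left out and 41091 with 1 gene symbol were named, giving 19775 genes. Some genes are not reported here. The comparisons used limma 3.58.1 and R 4.3.3 (group means over 12 arrays, empirical Bayes without trend, Benjamini-Hochberg adjustment over all genes, threshold 0.05). Deviations of same-numbered arrays from their group means correlated at 0.544 to 0.913 over 12 pairs. This is the basis for treating the numbers as pairs. Over the members alone they correlated at 0.209 to 0.986. Differently numbered arrays correlated at -0.718 to 0.646 over 36 pairs, and all the positive ones joined arrays alike in the R mark. SB590885 replicate 3 had 0.572 with DMSO replicate 4, against 0.557 with DMSO replicate 3. Pairing by number was not tested against pairing by R mark set. The fit without a block was tested on simulated data for SB590885 against DMSO, with independent noise on each array and changes in non-members only. The fits with a block and those without replicate 2 were not tested in this way. The members, lists, naming rule and tests were chosen with earlier results of these data known. Named genes are those that passed, the widest and narrowest replicate 2 minus replicate 1 difference per role, the widest differences without replicate 2, and list members. The number of arrays limits the precision. Without a block, p-values measure the spread between arrays. With the replicate block on the treatments, they measure the spread left after the shift shared by a replicate number is removed.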

Additional observations from a re-analysis of the deposited data

Results flagged for a closer look

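By Dixon's criterion for 4 samples, the member median of PD325901 replicate 2, at 10.92, and that of DMSO replicate 2, at 11.06, stood apart from the other 3 arrays of their groups. Gene by gene, PD325901 replicate 2 stood apart in 28 of 42 members, DMSO replicate 2 in 33, and SB590885 replicate 2 in 1. Chance flags about 1 in 20 groups, and over all genes some array stood apart in 3.65% after SB590885, 3.66% after PD325901 and 3.93% after DMSO. The cause was not tested.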

How the results depend on the processing

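The precision is limited by 4 arrays a group. Of the members called without a block, SB590885 against DMSO had 0, PD325901 against DMSO 0, SB590885 against PD325901 0 and R-marked against unmarked arrays 8. These counts became 6, 0, 6 and 8 with the replicate block (random for the R mark), and 12, 8, 15 and 15 with the block and replicate 2 of all groups left out. On the R-marked arrays alone they were 4, 6 and 6 (9.52%, 14.3% and 14.3% of members, against 5.39%, 5.46% and 8.95% of all genes). With the replicates 2 of DMSO and PD325901 left out they were 1, 0 and 2 (1.62%, 0.415% and 2% of all genes), and the R mark as a term gave 1 for SB590885 against PD325901 (16.1% of all genes). Quantile normalisation gave 3 for the R mark. It turned the shares of all genes higher and lower to 23.6% and 13.4% for the R mark (23.4% and 32.1% without it), 0.885% and 0.89% for PD325901 against DMSO (0.086% and 0.506%), and 4.43% and 3.43% for SB590885 against PD325901 (1.97% and 0.855%). Centring gave 10.4% and 38.4% for the R mark, and 0.718% and 1.21% for SB590885 against DMSO (1.59% and 1.69% without it). Leaving out 1 array or 1 replicate number in turn gave 0 to 1 (SAMD9L, without replicate 2) for SB590885 against DMSO, 0 for PD325901 against DMSO, 0 to 1 (SAMD9L) for SB590885 against PD325901, and 0 to 40 for the R mark. All genes were called at 0.167% to 3.49%, 0.197% to 0.637%, 0.561% to 2.57% and 43.1% to 54.1%. The R mark count, all lower, was 40 without replicate 1, 30 without DMSO replicate 1, 28 without PD325901 replicate 1 and 2 without DMSO replicate 2, against 29.5%, 31.9%, 30.6% and 31.3% of all genes lower. Filtering, centring, the moderation and the mean of probe sets moved no count of member calls by over 1.5 times. The counts of replicate 2 against replicate 1 stayed within 1.5 times. Over all genes, filtering, centring and the moderation moved some counts of calls by more. Centring also gave 1.06% and 0.496% for SB590885 against PD325901 (1.97% and 0.855% without it).

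Single genes changed direction against the fit without a block on 12 arrays. With the replicate block and replicate 2 left out, on R-marked arrays alone, and without the replicates 2 of DMSO and PD325901, SB590885 against DMSO gave 0.54, 0.39 and 0.66 for IRF7, and 0.44, 0.17 and 0.88 for ISG15. In the same order, SB590885 against PD325901 gave 0.20, 0.25 and 0.21 for IFI35, 0.22, 0.27 and 0.25 for LAMP3, 0.51, 0.55 and 0.63 for OAS1, and 0.20, 0.22 and 0.22 for OAS3. IRF7 in that comparison was -0.028 under quantile normalisation, and on the arrays without the R mark IRF7, HERC5 and IFITM1 were -0.28, -0.047 and -0.024. Leaving out arrays in turn, SB590885 against DMSO ranged from -0.43 to 1.73 for IFIT3, -0.29 to 0.66 for IRF7 and -1.22 to 0.88 for ISG15. PD325901 against DMSO ranged from -0.81 to 0.40 for IFI35, -0.017 to 1.34 for ISG20, -1.15 to 0.54 for LAMP3, -0.99 to 0.36 for OAS2 and -1.04 to 0.30 for UBE2L6. SB590885 against PD325901 ranged from -0.65 to 0.21 for IFI35, -0.31 to 0.64 for IRF7, -0.89 to 0.25 for LAMP3, -0.52 to 0.63 for OAS1 and -0.42 to 0.22 for OAS3. The cause was not tested.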
